A study of Mus musculus with 5 samples.

Results

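The epithelial-mesenchymal transition regulators described here are 10 genes chosen by symbol from the per-library expression tables of cells sorted from mouse pancreas. They are the transcription factors Snai1, Snai2, Zeb1, Zeb2 and Twist1, the intermediate filament gene Vim, the splicing factors Esrp1 and Esrp2, and the epithelial transcription factors Grhl2 and Ovol2. All 10 were found in each of the 5 tables, among 16992 gene symbols that the tables share. The cells came from the pancreas of adult C57BL/6 mice aged 2 to 4 months and were lysed freshly after sorting, with no treatment named. One group, CD133(positive)CD71(negative), has 2 libraries, and the other, CD133(high)CD71(low), has 3 libraries, of which the one without a number in its title is called library 3. Prom1 is the gene of the surface protein CD133, and Tfrc that of CD71, the transferrin receptor. The titles call the second group CD71(low), whereas another label field of the same samples gives CD71 as plus. The title of the series calls CD133(high)CD71(low) cells enriched for colony-forming progenitors, and the comparison here is of the 2 sorts. How many animals were pooled for a library, and whether libraries come from different animals, is not stated in the labels; each p-value reflects the spread among these 5 libraries, which could be technical.

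Epithelial cells can lose their junctions and polarity and take on a mesenchymal, motile form, a change called the epithelial-mesenchymal transition. The Snail, Zeb and Twist factors drive it by repressing epithelial genes such as Cdh1, which encodes E-cadherin, and they do so largely through short DNA elements called E-boxes. Grhl2 and Ovol2 act in the opposite direction, in part by repressing Zeb1, and Esrp1 and Esrp2 keep the epithelial splice forms of many transcripts. The same Zeb and Snail factors and Vim are also made by cells that were never epithelial, such as leukocytes, endothelial cells and fibroblasts. In the pancreas, duct and acinar cells are epithelial.

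The values are RPKM (reads mapped to a gene, divided by transcript length in kilobases and by library depth), and depths inferred from the values were 19.7 to 41.9 M reads per library (M, 1e6). CD133(high)CD71(low) library 3 stood apart: its table uses other gene models, and across genes its log2 values correlated with those of libraries 1 and 2 at r = 0.958 and 0.962, against 0.996 between libraries 1 and 2. Prom1 was at 45.8 and 48.8 RPKM in CD133(positive)CD71(negative) cells and at 72.8, 74.7 and 133.3 in CD133(high)CD71(low) cells, and Tfrc was at 4.00 and 4.36 against 5.34, 6.84 and 12.2, so each gene was higher in every CD133(high)CD71(low) library. Neither passed the test described next (limma adjusted p = 0.0909 and 0.151), and without library 3 both did (limma adjusted p = 0.000209 and 0.01115), the log2 difference of Tfrc being 0.45 in place of 0.75. The summed level of 20 leukocyte markers was 1734 to 1756 RPKM in CD133(positive)CD71(negative) and 47.7 to 90.2 in CD133(high)CD71(low), that of 15 endothelial markers 869 to 931 against 86.7 to 254, that of 12 stellate and fibroblast markers 46.1 to 47.0 against 19.3 to 23.5, and that of 7 Schwann cell markers 17.7 to 18.5 against 2.57 to 3.54. All 20 leukocyte, all 15 endothelial, 10 of the 12 stellate and fibroblast and all 7 Schwann markers were lower in every CD133(high)CD71(low) library, and none of these markers was at 0 in all of them. Among the 16992 shared symbols 17.9% were lower in every CD133(high)CD71(low) library than in both others. The 12 ductal markers summed to 2860 to 3112 RPKM against 3965 to 6048, with 11 higher in every CD133(high)CD71(low) library. Higher in this sense were 44.2% of the shared symbols. The 14 acinar enzyme genes summed to 237599 to 265220 RPKM against 222225, 223162 and 102876, library 3 being the lowest. By limma 0 of these 14 genes passed with either sign, and 0 differed at an unadjusted p under 0.05. The sum of 14 endocrine markers was 1689 to 1863 RPKM against 597 to 1848, with 6 of 11 tested genes fallen, where 7.22% of all tested genes fell. That of 6 erythroid markers was 11.8 in both CD133(positive)CD71(negative) libraries against 32.5 to 122.8. Of its 4 tested genes, all globins, 3 rose, where 6.25% of all tested genes did. Hbb-b1 and Hbb-b2, which are among these 3, had means of 0.675 and 0.228 RPKM in CD133(positive)CD71(negative). They thus entered the test through the group where they are high. The part of these other cell types in the results for the regulators was not tested. In sorted bulk samples, fewer cells of a type and less RNA per cell cannot be told apart.

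Differences were tested with limma on log2(RPKM + 1) over all 11769 genes with a mean of at least 1 RPKM, adjusted p-values (Benjamini-Hochberg) below 0.05 counting as passed, with positive differences where CD133(high)CD71(low) is higher. Of the 10 regulators 7 could be tested. In CD133(high)CD71(low) cells 3 of them rose, Esrp1, Grhl2 and Ovol2, and 2 fell, Zeb2 and Vim. Among all tested genes 735 rose (6.25%) and 850 fell (7.22%), and the median log2 difference was 0.31 in favour of CD133(high)CD71(low). Libraries scaled by median-of-ratios instead gave 312 genes that rose (2.65%) and 1090 that fell (9.25%), with a median of 0.06, so the balance of calls depends on the scaling. Without library 3, 4785 genes rose (40.9%) and 1425 fell (12.2%), and with both changes 1782 rose (15.2%) and 1931 fell (16.5%). Read without a test, 4 of the 10 regulators were higher and 5 lower in every CD133(high)CD71(low) library than in both others, and only Twist1 overlapped. Of all 16992 shared symbols 44.2% were higher and 17.9% lower in this sense. The plot of levels by library shows all 10.

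**Figure D1:**
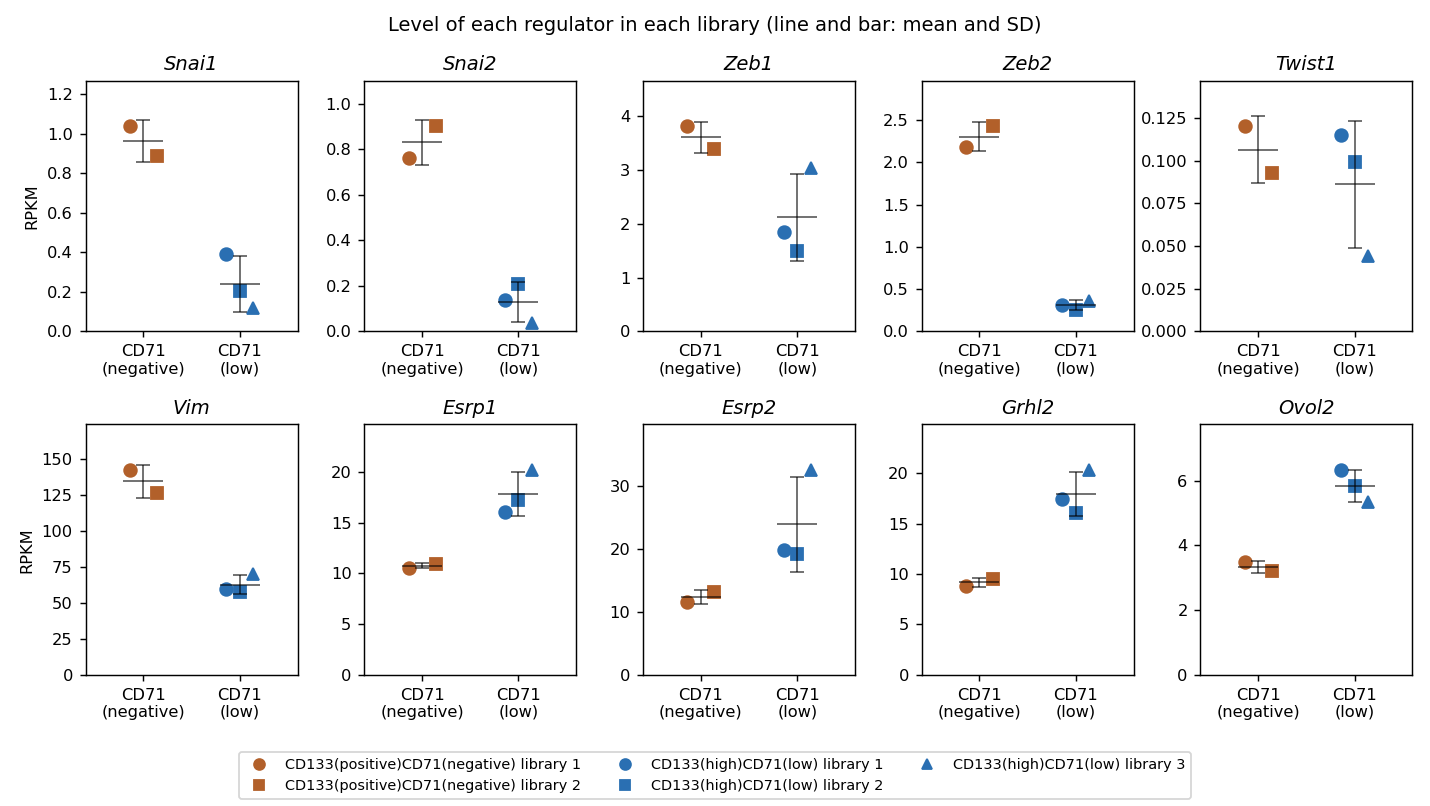
Level in RPKM (y axis, a separate linear scale from 0 for each gene) of the 10 regulators in the 2 CD133(positive)CD71(negative) and the 3 CD133(high)CD71(low) libraries. Points are libraries, and line and bar are mean and SD; the groups overlap for Twist1 alone, the other 5 mesenchymal genes lie lower in CD133(high)CD71(low), and the 4 epithelial regulators lie higher.

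The promoter sequences of 2 of the mesenchymal factors are shown because E-boxes are the elements that Snail and Zeb proteins bind, and because both genes were lower in CD133(high)CD71(low). Each run is the 250 bases before the RefSeq start on build GRCm38.p6, read 5′ to 3′ on the gene's strand. Capitals mark the E-box CACCTG or its reverse complement CAGGTG, searched on both strands. Snai1 is on the plus strand of chromosome 2, the window being chr2:167537945-167538194, and Zeb2 is on the minus strand of the same chromosome, the window being chr2:45117443-45117692, before the most upstream of its 4 RefSeq starts.
Snai1: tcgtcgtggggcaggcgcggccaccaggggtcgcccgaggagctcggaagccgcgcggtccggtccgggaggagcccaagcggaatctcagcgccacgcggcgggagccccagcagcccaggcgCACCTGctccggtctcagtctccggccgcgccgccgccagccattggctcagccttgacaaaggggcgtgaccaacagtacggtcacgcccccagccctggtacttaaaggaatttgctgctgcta
Zeb2: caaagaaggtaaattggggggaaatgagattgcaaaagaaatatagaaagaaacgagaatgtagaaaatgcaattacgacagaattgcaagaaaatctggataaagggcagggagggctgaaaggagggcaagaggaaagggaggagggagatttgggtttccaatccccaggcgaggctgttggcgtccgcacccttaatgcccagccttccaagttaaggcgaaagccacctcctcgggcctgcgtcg
The Snai1 window holds 1 such E-box, 126 bases before the start, and has 70% G and C, whereas the Zeb2 window holds none and has 49.6%. Windows of this length hold CACCTG or CAGGTG in 17.2% of 32851 RefSeq promoters, so a match here is a description and not a site. The Grainyhead element AACCGGTT was in 0.116% of the windows and in none of the 5 regulators with a RefSeq promoter entry, which are Snai1, Zeb2, Twist1, Vim and Ovol2.

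Zeb2, which represses Cdh1 and is also expressed in leukocytes and neural crest derivatives, was the mesenchymal factor that passed the test. Its level was 2.18 and 2.43 RPKM in CD133(positive)CD71(negative) cells and 0.315, 0.249 and 0.363 in CD133(high)CD71(low) cells. The groups lay far apart, and all CD133(high)CD71(low) libraries were close to one another, library 3 included. The means were 2.30 ± 0.175 (SD, n = 2) and 0.309 ± 0.0573 (SD, n = 3), a ratio of 7.45. On the log2(RPKM + 1) scale, which compresses changes of low genes, Zeb2 fell by 1.34 (SE 0.11, 95% interval -1.61 to -1.06, limma adjusted p = 0.002), and with a pseudocount of 0.1 it fell by 2.56. Only 573 of the tested genes had a lower log2 difference. Zeb2 entered the test through the group where it is high, since its mean over all libraries was 1.11 RPKM, and without either CD133(positive)CD71(negative) library it was below the minimum level and had no value. On GRCm38 with GENCODE M21 models, Zeb2 lies on chr2:44983632-45117395 and overlaps the antisense gene Zeb2os over 3381 bases, and reads of the pair cannot be told apart because the strand of counting is not given.

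Zeb1, the close relative of Zeb2 and a target of Grhl2 and Ovol2 repression, was at 3.81 and 3.39 RPKM in CD133(positive)CD71(negative) and at 1.85, 1.49 and 3.03 in CD133(high)CD71(low). All 3 CD133(high)CD71(low) values were below the other 2, but library 3 lay nearer to the CD133(positive)CD71(negative) libraries than to libraries 1 and 2 of its own group. The log2 difference was -0.59 (SE 0.23, 95% interval -1.16 to -0.02, limma adjusted p = 0.13), so Zeb1 did not pass. Without library 3 Zeb1 fell by 0.79 (limma adjusted p = 0.00041), and with all libraries under median-of-ratios scaling it fell by 0.82 (limma adjusted p = 0.0388). The call for Zeb1 thus changed with library 3 and with the scaling, and its sign was the same in each. The members of this pair differed in proportion: Zeb1 was 1.75 and 1.40 times Zeb2 in CD133(positive)CD71(negative) and 5.85, 5.99 and 8.36 times Zeb2 in CD133(high)CD71(low), without overlap.

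Snai1 and Snai2 encode the Snail and Slug repressors, and both were below the minimum level of the test. Snai1, at chr2:167538195-167542814, was at 1.04 and 0.890 RPKM in CD133(positive)CD71(negative) and at 0.394, 0.204 and 0.118 in CD133(high)CD71(low). The groups did not overlap, and the ratio of means was 4.04. At the inferred depths these values stand for about 43 and 28 reads against 20, 10 and 8. Snai2, at chr16:14705852-14709385, was at 0.760 and 0.902 RPKM, about 39 and 36 reads, against 0.140, 0.209 and 0.0352, about 9, 13 and 3 reads. Its groups did not overlap either, the ratio of means was 6.49, and library 3 was the lowest.

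When all 16887 genes with any value above 0 were tested, 958 rose (5.67%) and 1729 fell (10.2%), and Snai1 and Snai2 were among those that fell. Snai1 fell by 0.67 (SE 0.11, limma adjusted p = 0.0207) and Snai2 fell by 0.70 (SE 0.081, limma adjusted p = 0.00826). A pseudocount of 1 is above every CD133(high)CD71(low) value of these genes, so their log2 differences understate the ratios of means. The quotient of Snai1 to Snai2 was 1.37 and 0.986 in one group and 2.82, 0.975 and 3.34 in the other, which overlapped.

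Twist1, a basic helix-loop-helix factor of mesoderm and neural crest, at chr12:33957671-33959829, had the lowest level of the regulators. It was at 0.120 and 0.0928 RPKM in CD133(positive)CD71(negative) and at 0.115, 0.0994 and 0.0443 in CD133(high)CD71(low), about 3 to 6 reads in each library. The groups overlapped, and no difference was detectable at this depth. The exact 95% Poisson intervals, which cover counting error only, ran from 0.0393 to 0.283 RPKM in the first CD133(positive)CD71(negative) library and from 0.00908 to 0.129 in library 3. Among all expressed genes the log2 difference was -0.03 (limma adjusted p = 0.593).

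Vim, the intermediate filament gene of mesenchymal cells, leukocytes and endothelium, at chr2:13573927-13582826, had the highest level of the 10 genes. It was at 142.5 and 126.3 RPKM in CD133(positive)CD71(negative) and at 59.9, 57.7 and 70.2 in CD133(high)CD71(low). The groups were well apart, and the lowest CD133(positive)CD71(negative) library was above the highest of the others by more than the spread within either group. The means were 134 ± 11.5 (SD, n = 2) and 62.6 ± 6.69 (SD, n = 3), a ratio of 2.15. Vim fell by 1.09 on the log2 scale (SE 0.14, 95% interval -1.45 to -0.74, limma adjusted p = 0.00889), and 707 of the tested genes had a lower difference. It fell by 1.18 without library 3 (limma adjusted p = 6e-06). The call was lost without CD133(positive)CD71(negative) library 1 or 2 (limma adjusted p = 0.158 and 0.116), each of which left that group with a single library, and without CD133(high)CD71(low) library 2 (limma adjusted p = 0.0502).

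Vim was 2.15-fold lower in CD133(high)CD71(low), whereas the summed leukocyte markers were 24.2-fold lower and the endothelial ones 5.42-fold lower. Per 100 RPKM of the summed leukocyte markers Vim was 8.11 and 7.28 in CD133(positive)CD71(negative) and 66.4, 73.9 and 147 in CD133(high)CD71(low). Set against the summed endothelial markers in the same way, it was 15.3 and 14.5 against 23.6, 36.6 and 81.0. Vim therefore differed less between the groups than either marker sum. Per 100 RPKM of the stellate and fibroblast sum Vim was 309.0 and 268.5 against 255, 266 and 363, which overlapped. That quotient rests on Rgs5, a pericyte marker that did not fall and made up 55.2% to 86.8% of the sum in CD133(high)CD71(low). Without Rgs5 the sum was 4.67-fold lower in CD133(high)CD71(low), and Vim was 410 and 382 per 100 RPKM of it against 629, 593 and 2750, without overlap. Relative to Cdh1 the level of Vim was 1.08 and 0.876 against 0.249, 0.249 and 0.230, a ratio of 4.02 between the group means. Relative to the epithelial keratins Krt8 and Krt18 these ratios were 3.52 and 3.74. All of these quotients are within a library, are free of library scaling and were chosen after the values were seen, and they are given without a test.

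The same quotients were computed for Zeb2. Per 100 RPKM of leukocyte markers Zeb2 was 0.124 and 0.140 in CD133(positive)CD71(negative) and 0.350, 0.319 and 0.761 in CD133(high)CD71(low), higher in each of them, as for Vim. Relative to 100 RPKM of endothelial markers it was 0.234 and 0.279 against 0.124, 0.158 and 0.418, which overlapped. Per 100 RPKM of stellate and fibroblast markers Zeb2 was 4.73 and 5.16 against 1.34, 1.15 and 1.88, without overlap. Without Rgs5 in that sum the groups overlapped through library 3 alone, at 6.26 and 7.34 against 3.31, 2.56 and 14.2. The sum without Rgs5 was 2.55 RPKM in library 3, against 9.52 and 9.72 in libraries 1 and 2 of that group. The separation of all libraries thus rests on Rgs5, whereas libraries 1 and 2 stayed below both CD133(positive)CD71(negative) libraries without it. For Snai2 the quotient to the endothelial sum overlapped, as for Zeb2, at 0.0816 and 0.104 against 0.0551, 0.133 and 0.0406. To the stellate and fibroblast sum without Rgs5 Snai2 was lower in each CD133(high)CD71(low) library, at 2.19 and 2.73 against 1.47, 2.15 and 1.38. The nearest values, 2.19 and 2.15, were almost equal. The value of 2.15 rests on about 13 reads of Snai2 (0.209 RPKM, 95% Poisson interval 0.112 to 0.359). This separation is therefore within counting error. Zeb1 and Snai1 were higher relative to the endothelial sum without overlap. Zeb1 was 0.409 and 0.391 against 0.727, 0.946 and 3.50, and Snai1 was 0.111 and 0.102 against 0.155, 0.130 and 0.136. To the stellate and fibroblast sum Snai1 was instead lower without overlap, at 2.25 and 1.89 against 1.68, 0.941 and 0.609. Without Rgs5 it overlapped, at 2.98 and 2.69 against 4.14, 2.10 and 4.61. Zeb1 overlapped relative to the sum with Rgs5, and without Rgs5 it was higher without overlap. The Snai1 quotients in CD133(high)CD71(low) rest on about 20, 10 and 8 reads.

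Esrp1 and Esrp2 encode RNA-binding proteins that direct the epithelial choice of exons in transcripts such as Fgfr2, Cd44 and Ctnnd1. Esrp1, at chr4:11331933-11386783, was at 10.6 and 10.97 RPKM in CD133(positive)CD71(negative) and at 16.0, 17.3 and 20.2 in CD133(high)CD71(low). Every CD133(high)CD71(low) library was above both others, and the means were 10.8 ± 0.288 (SD, n = 2) and 17.8 ± 2.15 (SD, n = 3), a ratio of 1.66. Esrp1 rose by 0.67 on the log2 scale (SE 0.14, 95% interval 0.33 to 1.02, limma adjusted p = 0.0339). The difference was 0.40 under median-of-ratios scaling (limma adjusted p = 0.0467), and the call was lost when any one of the 4 numbered libraries was left out (limma adjusted p from 0.0769 to 0.321).

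Esrp2, at chr8:106130319-106136974, was at 11.6 and 13.2 RPKM in CD133(positive)CD71(negative) and at 19.9, 19.2 and 32.6 in CD133(high)CD71(low). The groups did not overlap, and library 3 was far above libraries 1 and 2. The log2 difference of 0.86 was larger than that of Esrp1, but it did not pass (SE 0.25, 95% interval 0.23 to 1.49, limma adjusted p = 0.0792). Without library 3 Esrp2 rose by 0.62 and passed (limma adjusted p = 0.000586). The quotient of Esrp2 to Esrp1 was 1.09 and 1.20 in CD133(positive)CD71(negative) and 1.24, 1.11 and 1.61 in CD133(high)CD71(low), so the paralogs were at like levels in every library but library 3. Overlapping genes on the other strand are Gm26663 for Esrp1 and Nfatc3 and 1810019D21Rik for Esrp2, whose reads cannot be told apart from theirs.

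Grhl2, the Grainyhead factor that activates Cdh1 and tight junction genes, had the smallest adjusted p of the epithelial regulators. It lies on chr15:37233036-37363569, with Gm16136 and Gm16137 on the opposite strand. Grhl2 was at 8.84 and 9.51 RPKM in CD133(positive)CD71(negative) and at 17.4, 16.1 and 20.3 in CD133(high)CD71(low). The groups did not overlap, and library 3 was near its group. The means were 9.17 ± 0.473 (SD, n = 2) and 17.9 ± 2.19 (SD, n = 3), a ratio of 1.96. Grhl2 rose by 0.89 on the log2 scale (SE 0.14, 95% interval 0.54 to 1.24, limma adjusted p = 0.0164), and 214 of the tested genes had a higher difference. It rose by 0.62 under median-of-ratios scaling (limma adjusted p = 0.0112) and by 0.80 without library 3 (limma adjusted p = 9.39e-05). Without CD133(high)CD71(low) library 1 or 2 it missed the threshold (limma adjusted p = 0.0585 and 0.0502), as it did without CD133(positive)CD71(negative) library 1 or 2 (limma adjusted p = 0.225 and 0.157).

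Ovol2, a zinc finger repressor of Zeb1 and of other mesenchymal genes, at chr2:144305175-144332146 with 1700108N11Rik on the opposite strand, was the least abundant of the epithelial regulators. It was at 3.47 and 3.20 RPKM in CD133(positive)CD71(negative) and at 6.34, 5.82 and 5.33 in CD133(high)CD71(low). The groups did not overlap, and here library 3 was the lowest of its group, in contrast to Esrp1, Esrp2 and Grhl2. Ovol2 rose by 0.65 on the log2 scale (SE 0.13, 95% interval 0.33 to 0.98, limma adjusted p = 0.0306), with a ratio of means of 1.75. Under median-of-ratios scaling of all libraries the difference was 0.42 and did not pass (limma adjusted p = 0.197), and under quantile normalization it was 0.52 (limma adjusted p = 0.108). With median-of-ratios scaling and without library 3 it was 0.55 and passed (limma adjusted p = 0.00318). Leaving out any one numbered library also ended the call (limma adjusted p from 0.115 to 0.271).

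**Figure D2:**
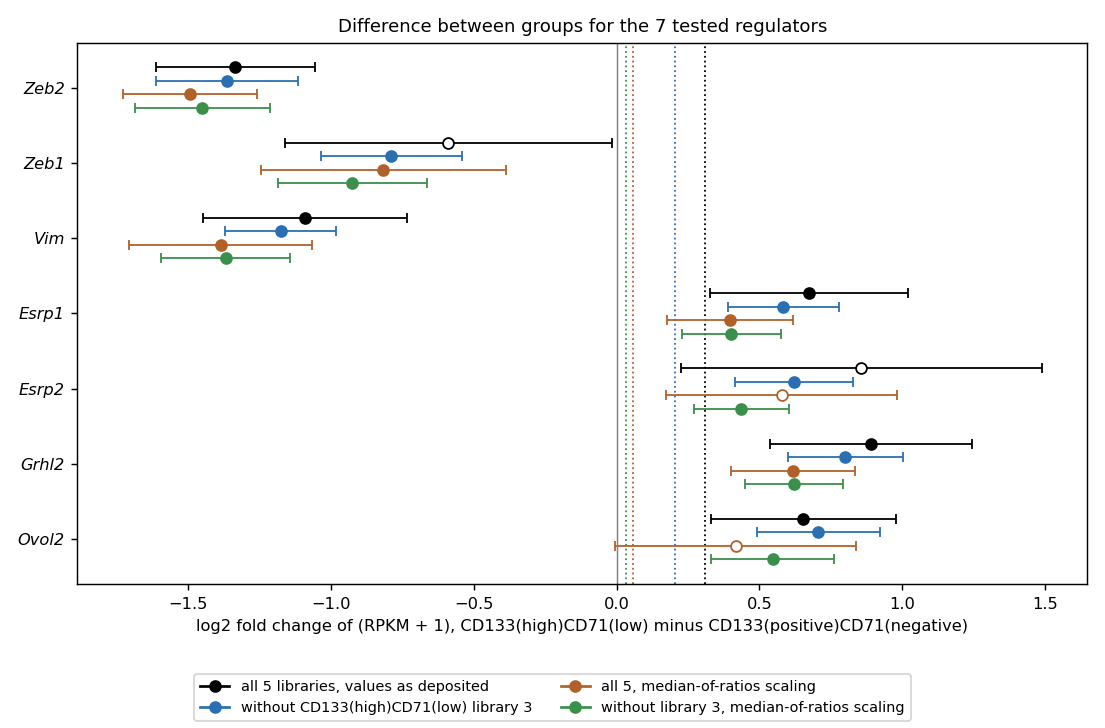
Difference in log2(RPKM + 1) on the x axis (positive where CD133(high)CD71(low) is higher) for the 7 tested regulators, with 95% intervals from limma, for all libraries and for 3 alternatives named in the legend; filled points passed the threshold, open points did not, and dotted lines mark the median of all genes. Zeb1, Zeb2 and Vim lie left of 0 and the 4 epithelial regulators right of 0 in each setting, and the intervals of Zeb1 and Esrp2 are the widest with all libraries.

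The 4 epithelial regulators kept nearly constant proportions to Cdh1, which itself rose from 138 ± 8.28 RPKM (SD, n = 2) to 259 ± 40.1 (SD, n = 3; 0.89 on the log2 scale, limma adjusted p = 0.0272). Per 100 RPKM of Cdh1, Grhl2 was 6.67 and 6.60 in CD133(positive)CD71(negative) and 7.24, 6.93 and 6.67 in CD133(high)CD71(low). Esrp2 was 8.73 and 9.15 against 8.26, 8.27 and 10.7, and Ovol2 was 2.62 and 2.22 against 2.63, 2.51 and 1.75. The groups overlapped for each of these 3 genes. Esrp1 was 7.98 and 7.61 against 6.66, 7.45 and 6.62, lower in each CD133(high)CD71(low) library though it is higher there in RPKM. The mean quotients differed between groups by 1.13-fold or less for each of the 4. The quotient of Grhl2 to Zeb1, 2 factors that repress each other, was 2.32 and 2.80 in CD133(positive)CD71(negative) and 9.44, 10.8 and 6.71 in CD133(high)CD71(low).

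**Figure D3:**
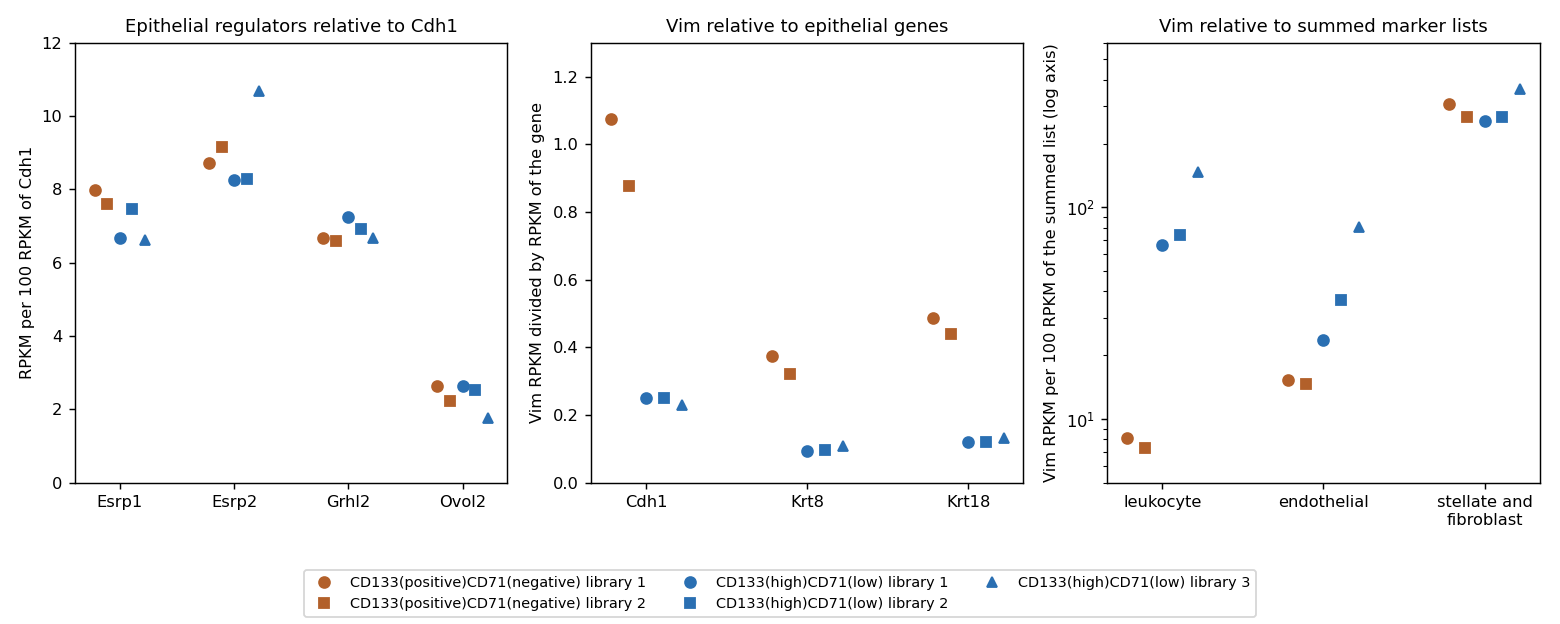
Quotients within each library, with points for libraries: Esrp1, Esrp2, Grhl2 and Ovol2 per 100 RPKM of Cdh1 (left, linear axis), Vim divided by Cdh1, Krt8 and Krt18 (middle, linear axis) and Vim per 100 RPKM of 3 summed marker lists, Rgs5 included (right, log axis). The epithelial regulators sit at like proportions to Cdh1 in both groups, Vim is lower relative to Cdh1 and the keratins in CD133(high)CD71(low), and Vim is higher there relative to the leukocyte and endothelial sums.

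Genes with profiles most like each tested regulator were ranked by the Euclidean distance between centred log2(RPKM + 1) profiles over the 5 libraries, among about 7410 genes with a mean of at least 5 RPKM. Nearest to Zeb2 were Unc93b1 (distance 0.14), Tnfsf10 (0.185) and B2m (0.198), of which Unc93b1 serves endosomal Toll-like receptors and B2m is the light chain of MHC class I. Nearest to Zeb1 were Osmr (0.158), Mcf2l (0.216) and Tcf4 (0.218), and nearest to Vim were Mecom (0.155), Prnp (0.172) and Ctsc (0.172). Profiles nearest to the epithelial regulators were closer: Dtd1 (0.0477), Gprc5b and Pepd for Esrp1, Pard3 (0.0802), Sytl5 and Fam107b for Esrp2, Ppp1r26 (0.0512), Phyhd1 and Degs2 for Grhl2, and Pfdn1 (0.0714), Nrbp2 and Phldb3 for Ovol2. Pard3 encodes a polarity protein of epithelial junctions. With 5 libraries in 2 groups, a small distance is a description and carries no test.

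Other genes of the same programme were described from lists by the number that passed the test in each direction. Among all tested genes 6.25% rose and 7.22% fell with all libraries as deposited. Under median-of-ratios scaling 2.65% rose and 9.25% fell. Of 12 other transcription factors that can induce the transition, such as Sox4 and Tcf4, 6 were tested and 1 rose. Sox4 was at 32.6 and 38.9 RPKM in CD133(positive)CD71(negative) and at 65.5, 64.5 and 52.2 in CD133(high)CD71(low), higher in every library (0.74 on the log2 scale, limma adjusted p = 0.0372). With all libraries as deposited and the minimum level of 1 RPKM, no tested gene of that list fell (0 by limma, also 0 at an unadjusted p under 0.05). With no minimum level 11 of the 12 were tested. Of these 2 rose, Foxq1 and Sox4, and 2 fell, Twist2 and Prrx1, where 5.67% and 10.2% of all tested genes did. Prrx1 was at 0.322 and 0.420 RPKM against 0.0913, 0.0395 and 0.0287, and Twist2 was lower still. Tcf4 fell under median-of-ratios scaling, where the call for Sox4 was lost, and also without library 3. The list's median difference was 0.31, the same as over all genes. Of 8 relatives of Grhl2 and Ovol2 and other epithelial factors found in the tables, 4 were tested and 3 rose, namely Elf3, Klf5 and Foxa2, with a list median of 0.74. Klf5, a factor of gut and duct epithelium, was at 3.93 and 4.53 RPKM against 8.17, 8.22 and 7.86, and Foxa2, an endoderm factor, went from 22.1 ± 1.94 (SD, n = 2) to 36.0 ± 2.14 (SD, n = 3). Under median-of-ratios scaling 0 of this list passed by limma, though all 4 tested were higher at an unadjusted p under 0.05, as were 11.6% of all tested genes.

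The transcripts whose exons Esrp1 and Esrp2 are known to choose were measured per gene, so exon use was not analysed here. All 7 were tested and 0 passed by limma with either sign, whereas 5 had a higher level at an unadjusted p under 0.05, as did 27.5% of all tested genes, and the list median was 0.59. Fgfr2, whose epithelial and mesenchymal receptor forms are the classic Esrp target, was at 33.1 and 36.7 RPKM against 65.5, 64.2 and 131, with library 3 far above the rest (1.21 on the log2 scale, limma adjusted p = 0.0715). Without library 3, 6 of these 7 genes rose and 1 fell, where 40.9% and 12.2% of all tested genes did. With median-of-ratios scaling as well 3 rose and 1 fell, where 15.2% and 16.5% did. Of 7 other splicing regulators of this switch 1 fell: Mbnl1, a muscleblind factor, was at 16.4 and 18.6 RPKM against 8.21, 8.80 and 10.8 (-0.85 on the log2 scale, limma adjusted p = 0.0243). The median of these 7 was 0.17, and -0.08 under median-of-ratios scaling.

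Most epithelial adhesion, polarity and keratin genes were higher. Of 21 listed genes 20 were tested, 16 rose and 0 fell by limma (0 also at an unadjusted p under 0.05), with a list median of 0.78. Of all tested genes 6.25% rose and 7.22% fell. Those of the list that rose included Cdh1, Epcam, claudins 3, 4 and 7, and the keratins Krt8, Krt18 and Krt19. The untested gene, Cldn1, went the other way, at 0.436 and 0.638 RPKM against 0.0289, 0.0200 and 0. With no minimum level 16 of the 21 rose and 1, Cldn1, fell, where 5.67% and 10.2% of all tested genes did. Krt19, a duct keratin, went from 78.0 ± 4.79 RPKM (SD, n = 2) to 149 ± 6.86 (SD, n = 3; 0.92 on the log2 scale, limma adjusted p = 0.0089), and the polarity gene Llgl2 was at 29.2 and 33.8 against 58.5, 57.4 and 70.7. Under median-of-ratios scaling 6 of the list rose, where 2.65% of all tested genes did. Without library 3, 19 of the list rose, with or without that scaling, where 15.2% and 40.9% of all tested genes did.

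Mesenchymal effector genes moved the other way. Of 14 listed 10 were tested, 7 fell and 0 rose by limma (0 also at an unadjusted p under 0.05), with a median of -1.87 over the tested genes. Of all tested genes 7.22% fell and 6.25% rose. Of the 7, S100a4, Col1a1, Col1a2 and Mmp2 had means under 1 RPKM in CD133(high)CD71(low) and so entered the test through the group where they are high, and at a minimum mean of 5 RPKM 4 genes fell. The 7 were Fn1, Col1a1, Col1a2, Col3a1, Sparc, Mmp2 and S100a4, most of them matrix genes of fibroblasts. S100a4, a calcium-binding protein also made by leukocytes, was at 33.6 and 22.6 RPKM against 0.751, 0.779 and 0.335, and Fn1, the fibronectin gene, went from 41.7 ± 1.54 (SD, n = 2) to 6.28 ± 2.25 (SD, n = 3). Their log2 differences were -4.15 and -2.60, beside -1.09 for Vim. Of 6 filament relatives of Vim, 2 were tested and 0 passed by limma, 1 being lower at an unadjusted p under 0.05: Nes was at 7.14 and 6.95 RPKM against 3.96, 3.45 and 1.97 (limma adjusted p = 0.0528).

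**Figure D4:**
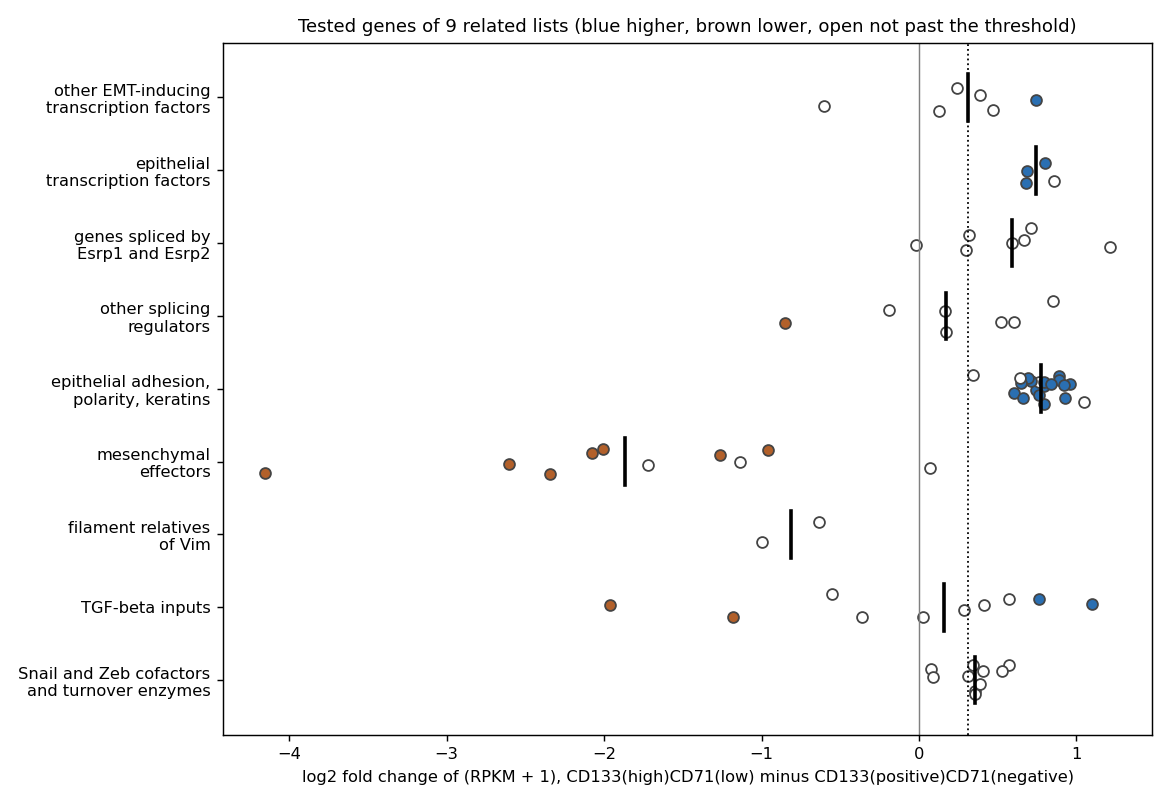
Difference in log2(RPKM + 1), positive where CD133(high)CD71(low) is higher, for each tested gene of 9 related lists, with filled points for genes past the limma threshold and open points for the others; black bars are list medians and the dotted line is the median of all tested genes, 0.31. Epithelial adhesion and keratin genes lie right of 0, with 16 of 20 risen, and mesenchymal effectors lie mostly left, with 7 of 10 fallen. Of all tested genes 6.25% rose and 7.22% fell.

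TGF-beta signalling is a main inducer of Snai1, Snai2 and the Zeb genes. All 10 genes listed for it were tested, 2 rose and 2 fell, where 6.25% and 7.22% of all tested genes did, with a list median of 0.16. This balance depended on the scaling: under median-of-ratios 1 rose and 4 fell, where 2.65% and 9.25% of all tested genes did. The list median was then -0.11, the call for Tgfb3 being lost and Smad7 and Skil having fallen. With library 3 also left out 2 rose and 5 fell, where 15.2% and 16.5% of all tested genes did. The ligand Tgfb3 was at 16.9 and 18.9 RPKM in CD133(positive)CD71(negative) and at 44.7, 40.3 and 34.0 in CD133(high)CD71(low) (1.10 on the log2 scale, limma adjusted p = 0.0109). The signal transducer Smad3 also rose, from 9.99 ± 0.950 (SD, n = 2) to 17.6 ± 1.62 (SD, n = 3). The ligand Tgfb1 was at 13.8 and 11.9 RPKM against 3.36, 2.55 and 1.90, with a log2 difference of -1.96 (limma adjusted p = 0.00433), and the receptor Tgfbr2 was at 19.8 and 19.1 against 9.21, 7.94 and 7.09. Tgfb1 and Tgfbr2 are also expressed by leukocytes and endothelial cells, whose summed markers were lower in the same libraries, and the part of those cells was not tested.

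All 10 cofactors and turnover enzymes of Snail and Zeb proteins were tested, and 0 passed by limma with either sign, and 3 had a higher level at an unadjusted p under 0.05, a share near the 27.5% of all tested genes. The corepressor Ctbp1 was at 30.7 ± 2.21 RPKM (SD, n = 2) and 32.5 ± 3.20 (SD, n = 3), and the deacetylase Hdac1 at 18.1 ± 1.29 and 19.5 ± 3.93, both with overlapping groups and with a sign that differed between scalings. Without library 3, 4 of the 10 rose, where 40.9% of all tested genes did. When those libraries were also scaled by median-of-ratios 1 rose, where 15.2% did. The microRNAs of the miR-200 family, which target Zeb1 and Zeb2, were not analysed here.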

How the data were processed

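RNA of freshly sorted mouse pancreas cells was measured in 5 libraries, grouped by their titles. The authors deposited one table of values per gene symbol for each library. Their unit is not given in the labels. The authors' values were taken as RPKM, since a low value times its transcript length tended to be a whole multiple of a step fixed for each library; FPKM would look the same. From 43.5% to 68.7% of low values lay within a tolerance of 0.05 reads, so counts were not recovered. Chance gives 10% at a depth set beforehand, but each depth was chosen for the best fit, where chance can give more. Per the submitters' processing notes, Partek and mm10 were used; for the aligner, annotation and strandedness of counting, each is not given in the sources used here. Counting of reads from overlapping or near-identical genes could move values of single genes.

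The 16992 symbols common to all tables were used, since library 3 lists 22522 symbols and the others 18618. A row of library 3 that names no gene was left out. Symbols turned into dates, 23 or 24 per table, were not named. In R 4.3.3 limma 3.58.1 (empirical Bayes with trend) was fitted to log2(RPKM + 1) of genes with a mean of at least 1, with group as the only term and Benjamini-Hochberg adjustment over all tested genes, and it was tested on simulated data. Tables, counts and figures were made with Python 3.11.15, pandas 2.3.3, scipy 1.17.1 and matplotlib 3.10.9. Alternatives were a pseudocount of 0.1, no minimum level, a minimum mean of 5, quantile normalization, scaling by median-of-ratios, leaving out each library, and fits of the 4 numbered libraries alone with that scaling or with a replicate block. Patj was matched as Inadl and Adgre1 as Emr1. Promoters came from a RefSeq table (GRCm38.p6), in which 5 of the 10 regulators matched by symbol, and gene positions from GENCODE M21. Named beside the 10 regulators were, for each list, up to 2 risen and 2 fallen genes with the smallest adjusted p, or the 2 highest if none passed, the 3 nearest profiles of each tested regulator, and Prom1 and Tfrc. Some further genes that passed are named as list members. The regulators and lists were chosen with earlier results of these data known.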

Additional observations from a re-analysis of the deposited data

How the results depend on the processing

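Signs were compared for the regulators, the genes picked from each list, the nearest profiles, Prom1 and Tfrc. None of these that passed the threshold with all libraries changed its sign under an alternative that gave a value. Other genes past the threshold were not checked for sign. Ctbp1 and Hdac1, which did not pass, turned negative under both rescalings, as did the medians of TGF-beta inputs (0.16 to -0.11) and other splicing regulators (0.17 to -0.08) under median-of-ratios scaling; that of TGF-beta inputs was also -0.07 without library 3 and -0.22 with both changes. Leaving Rgs5 out of the stellate and fibroblast sum was chosen after seeing the data. Zeb2 passed the limma threshold in 9 of 9 alternatives with a value (-2.56 to -1.12), Vim in 9 of 12, Esrp1 and Grhl2 in 8 of 12 and Ovol2 in 5 of 11. These counts cover unlike alternatives. Zeb2 had no value at a mean of at least 5 or without either CD133(positive)CD71(negative) library, whereas Vim, Esrp1 and Grhl2 had a value in each of these. Genes that rose numbered 735 with all libraries, 312 with median-of-ratios scaling, 1782 with the 4 numbered libraries and that scaling, and 0 to 4785 when one library was left out. Without CD133(positive)CD71(negative) library 1 limma called 0 genes higher, with 783 at an unadjusted p under 0.05, and a lone library was assumed to vary like the other group. Genes that fell numbered 850, against 1729 with no minimum level, 315 at a mean of at least 5, 1931 with the 4 numbered libraries and median-of-ratios scaling, and 154 to 1425 when one library was left out. Without CD133(high)CD71(low) library 1 or 2, 0 of the 10 regulators rose by limma, where 89 and 40 of all tested genes did. In both fits 4 regulators were higher at an unadjusted p under 0.05, as were 20.4% and 20.9% of all tested genes. In these fits 2 and 1 regulators fell, where 784 of 11818 and 561 of 11819 genes did. Without library 3, 4 regulators rose and 3 fell, where 40.9% and 12.2% of all tested genes did. Without CD133(positive)CD71(negative) library 1 or 2, which leaves a lone library, the log2 difference of Vim was -1.01 and -1.18 and that of Grhl2 0.84 and 0.94. Regulators that fell numbered 4 with no minimum level, 2 more than in the main test because Snai1 and Snai2 were then tested, and 1 at a mean of at least 5, where Zeb2 was not tested.

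The deviations of same-numbered libraries correlated at r = -0.0237 across genes, so no pairing by number was detected. This value cannot exclude that same-numbered libraries share animals or a sort, which the labels do not state. With a replicate block over the 4 numbered libraries 5275 genes rose and 1543 fell. Depth limits Twist1, Snai1 and Snai2, which rest on 43 reads or fewer per library.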
